A study of Mus musculus with 5 samples.

Results

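The miR-148/miR-152 family consists of miR-148a-3p, miR-148b-3p and miR-152-3p, which share their seed, the stretch of a miRNA that pairs with its target. Its binding sites were taken from tables of Ago HITS-CLIP in mouse liver. In this method, ultraviolet light crosslinks RNA to the Argonaute (Ago) proteins in intact tissue, and the RNA that is precipitated with Ago is sequenced. Every entry that paired 1 of the 3 members with a seed match inside a cluster of Ago-bound reads was taken, and entries at the same position were counted once. This gave 5581 positions over 5 libraries, of 1764811 positions over all seed families, with 2659, 1012, 1048, 1853 and 1407 positions in the libraries in order of age. Series of 5 values are given below in this order, from embryonic stages e12.5, e15.5 and e18.5 through postnatal day 7 (P7) to the adult.

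All livers came from C57BL/6 mice (C57BL/6J in the methods) and were exposed 3 times to 254 nm light at 0.2 J/cm2, and the adults were 6 to 8 weeks old. The embryonic livers were precipitated with Ago2 antibodies and the later ones with Ago1 antibodies as well, so that antibody and birth cannot be told apart in any comparison across birth. Each stage had 1 library and no labelled replicate, so a difference between stages is a difference between libraries, and intervals and tests cover counting error only. The summed reads of the clusters ran from 13008703 at e18.5 to 44867326 at e12.5. Of 8 hepatocyte marker genes, 7 to 8 had Ago clusters in each library, with a median level of 39.8, 129, 501, 442 and 342 cluster rpm (reads scaled to a total of 1000000 cluster reads). Their summed level, in the adult mostly from Alb, rose from 644 cluster rpm at e12.5 to 9036 in the adult. Of 8 erythroid markers, all 8 had clusters up to P7 and 5 in the adult, and their median level was 400, 754, 342, 74.7 and 0.442 cluster rpm. Their summed level, most of it from the globin gene Hba-a1, was 33943, 46478, 48600, 17418 and 811 cluster rpm. In a whole tissue, fewer cells of a type and less RNA per cell cannot be told apart.

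MiRNAs guide Ago to mRNAs through the seed, and the bound mRNA is usually degraded faster or translated less. Members of a seed family can bind the same sites, and they differ in the bases behind the seed, which can add pairing. The miR-148/miR-152 family is known for targets in cholesterol handling, such as Abca1, in the cell cycle, such as Cdkn1b, and in DNA methylation, such as Dnmt1. A site is called an 8mer, a 7mer-m8, a 7mer-A1 or a 6mer, in falling order of its match to the seed and of its usual effect.

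The mature sequences are shown because they decide which sites the members share. They are those of RefSeq on GRCm38.p6, with the seed, bases 2 to 8, in capitals.
mmu-miR-148a-3p (Mir148a, chr6:51269829-51269850, minus strand): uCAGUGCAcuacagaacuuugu
mmu-miR-148b-3p (Mir148b, chr15:103285185-103285206, plus strand): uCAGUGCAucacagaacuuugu
mmu-miR-152-3p (Mir152, chr11:96850439-96850459, plus strand): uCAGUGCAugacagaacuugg
The first 8 bases were identical in all 3. Counting from 1 at the 5′ end, miR-148a-3p and miR-148b-3p differed at C9U and U10C (miR-148a-3p first), and 20 of their 22 bases were the same. MiR-148a-3p and miR-152-3p differed at C9U, U10G and U20G, with 18 of 21 compared bases the same. No other miRNA in the tables carried this seed.

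The sites that the results below return to are shown next, each as 30 bases of the transcript strand on mm10 (GRCm38). Capitals mark the bases that match the seed, and the A opposite base 1 of the miRNA where the site type includes it. They were chosen as sites bound in all libraries, sites that differed most between libraries, or sites of listed target genes.
Abca1, 3′UTR, 7mer-m8, chr4:53030970-53030999, minus strand: tctgtaatggatctattttTGCACTGgaat
Herpud1, 3′UTR, 6mer, chr8:94394973-94395002, plus strand: tactgtatgtagtttcatagGCACTGtaag
C1galt1, 3′UTR, 8mer, chr6:7871263-7871292, plus strand: gaacataagtggtctacatTGCACTGAagg
Hspa5, 3′UTR, 8mer, chr2:34776096-34776125, plus strand: gaaaaagatgagttgtaggTGCACTGAtct
Arl6ip1, 3′UTR, 8mer, chr7:118119168-118119197, minus strand: aacatagtttgtggatccaTGCACTGAtgc
Cdkn1b, 3′UTR, 7mer-A1, chr6:134924339-134924368, plus strand: tgaatggacatcctgtataaGCACTGAgaa
Cdkn2d, 3′UTR, 7mer-m8, chr9:21288718-21288747, minus strand: taaacggttcagtttcctcTGCACTGgggc
Cyp8b1, 3′UTR, 7mer-A1, chr9:121914718-121914747, minus strand: ataccctgcagcccagagcaGCACTGAata
Srebf1, CDS, 7mer-A1, chr11:60205860-60205889, minus strand: gctcaaagacctggtggtggGCACTGAagc
Fgb, CDS, 7mer-m8, chr3:83044902-83044931, minus strand: ggaatactgccgcactccaTGCACTGtcag
The hexamer GCACTG was found at all 5581 positions on this build.

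Between 585 and 745 miRNAs were listed per library, and of the 3 members miR-152-3p was the most abundant in every library, though not in the second of the 2 lists that make up the e15.5 library (256 reads, against 275 for miR-148b-3p). Levels are given in rpm, scaled to a total of 1000000 miRNA reads. The level of mmu-miR-152-3p was 226, 123, 503, 747 and 516 rpm, from 5780 reads at e12.5 and 11816 in the adult. It ranked 155 of 745 miRNAs at e12.5, 89 of 743 at P7 and 74 of 585 in the adult, and its level was highest at P7. The level of mmu-miR-148a-3p was 81.9, 112, 142, 236 and 278 rpm, highest in the adult library, but the e15.5 lists gave 387 and 21.2 rpm, so that 1 of them lay above the adult value. The level of mmu-miR-148b-3p was 68.4, 55.4, 106, 22.2 and 57.8 rpm, lowest at P7, where it made up 2.21% of the family. The e18.5 lists gave 136 and 18.6 rpm for it, the second below the P7 value. The family together had 377, 291, 751, 1005 and 851 rpm, with 95% Wilson intervals of 369 to 384 at e12.5, 987 to 1023 at P7 and 840 to 864 in the adult.

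The adult library held 2.26 times the family rpm of the e12.5 library, a log2 ratio of 1.18 with a counting interval of 1.14 to 1.21. The ratio was 1.76 on the log2 scale for miR-148a-3p, 1.19 for miR-152-3p and -0.24 for miR-148b-3p. For miR-152-3p it was 0.10 with the first of 2 lists of e12.5 alone and 1.71 with the second, and for the family 0.36 and 1.51. Each embryonic table held 2 lists, which the labels do not describe, and the lists of a stage differed by more than the counting error. At e15.5 the family had 896 rpm in the first list and 91.1 in the second, a range that holds the values of the e12.5, e18.5 and adult libraries. At e12.5 the lists gave 663 and 299 rpm, and at e18.5 776 and 678. The P7 value, which comes from 1 list, lay above every list of the embryonic libraries, while the adult value lay inside the range of the e15.5 lists.

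**Figure D1:**
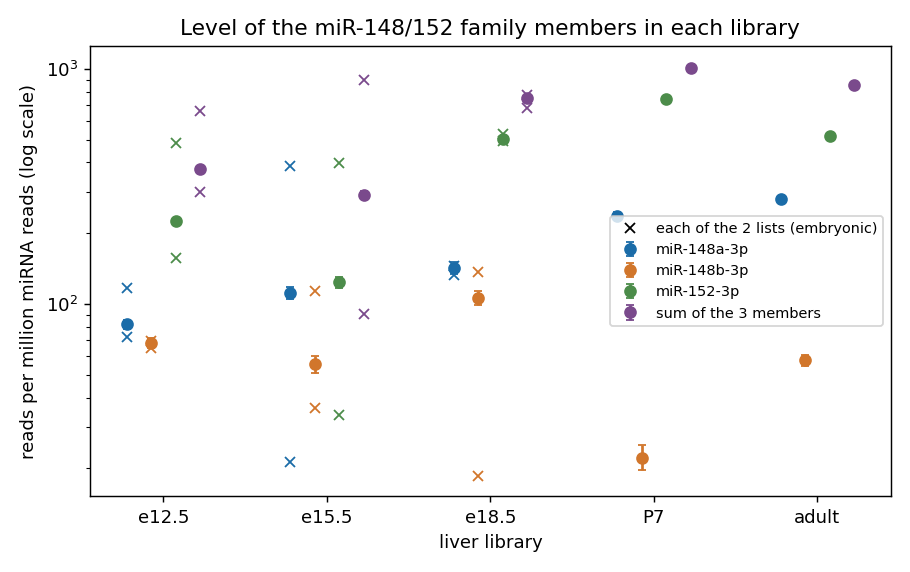
MiRNA level in rpm (log scale) of the 3 members and of their sum in the 5 liver libraries. Filled circles are the library values with 95% Wilson intervals, and crosses are the values of the 2 lists of each embryonic library; the crosses at e15.5 lie at 896 and 91.1 rpm for the sum, farther apart than the e12.5 and adult circles.

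The number carried in an interaction name was read as the read count of the miRNA. A measurement bears on this directly, since the clusters over the members' own genes had nearly the same numbers of reads. Over the 24 combinations of member and list, the reads at the gene were between 94% and 100% of the number in the name, with a median of 99.4%. For miR-152-3p in adult liver, 11709 reads lay over the gene and 11816 stood in the name.

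The arm from which each miRNA was taken differed among the members. MiR-152-3p had 8.26 times the reads of the opposite arm, miR-152-5p, at e15.5 and 32.9 to 50.1 times in the other libraries. The e15.5 lists held 991 reads against 0 and 256 against 151, and the e12.5 lists gave 18.8 and 138 times. MiR-148a-3p had 6.3 to 26.2 times the reads of miR-148a-5p, with 968 against 1 and 161 against 126 in the e15.5 lists. The 3p arm thus had more reads for both in every list, but by how much depended on the list. For miR-148b the 5p arm had more reads than the 3p arm in the e12.5 (2877 against 1747), e15.5 (1082 against 560) and P7 (659 against 268) libraries and in each of their lists. In the adult library the 3p arm of miR-148b had 2.08 times the reads of the 5p arm. At e18.5 it had 1.58 times with both lists joined, but the lists went opposite ways, with 790 reads against 420 and 37 against 104.

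The family's sites were nearly the same for the 3 members, so a site cannot be given to 1 of them. Of the positions in a list, 99.3% to 99.6% were listed for all 3 members, depending on the library. The deposited free energy of the predicted duplex, for which the files state no unit and in which a lower value means stronger predicted pairing, differed by a median of 1.6 to 1.9 between the members at the same site. MiR-152-3p alone had the lowest value at 45.8% of the sites at e12.5 and at 48.9% in adult liver. MiR-148a-3p alone had the lowest at 20% in adult liver, and miR-148b-3p at 20.5%. At the Fgb site the values were -7.4, -8.6 and -13.3 for miR-148a-3p, miR-148b-3p and miR-152-3p. At the Abca1 site they were -9.9, -10.5 and -10.8.

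Most family sites in mRNAs lay in the coding sequence (CDS) and the 3′UTR. At e12.5, 663 of 2659 sites (24.9%) were listed under a 3′UTR, 952 (35.8%) under a CDS and 65 (2.44%) under a 5′UTR. In adult liver, 312 of 1407 (22.2%) were listed under a 3′UTR, 747 (53.1%) under a CDS and 36 (2.56%) under a 5′UTR. The CDS share of the sites of all miRNAs went from 34.4% to 53% between the same libraries, close to the change of the family. The family's 3′UTR share was above that of all miRNA sites in each library, by 24.9% against 22.8% at e12.5 and 29.8% against 25.4% at P7. The sites named 1211 genes in 3′UTRs and 1818 in CDSs over the 5 libraries.

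In 3′UTRs, the family had more full matches and fewer 6mers than the average of all miRNA sites. At e12.5, 109 of 663 sites (16.4%) were 8mers, 201 were 7mer-m8, 91 were 7mer-A1 and 262 (39.5%) were 6mers. Among the 3′UTR sites of all miRNAs at e12.5, 7.39% were 8mers and 54.1% were 6mers. In adult liver, 63 of 312 family sites (20.2%) were 8mers, beside 7.57% of all sites. Over the 5 libraries together, the family ranked 25 of 806 seed families by its share of 8mers, where the median family had 6.58%. These shares are descriptions, given with no test.

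With the libraries pooled, conservation fell in the order of the site types, from the longest match to the shortest. The median conservation score, which runs from 0 to 1, was 0.831 for the 215 3′UTR positions with an 8mer, 0.556 for the 416 with a 7mer-m8, 0.182 for the 199 with a 7mer-A1 and 0.051 for the 557 with a 6mer. The quartiles were wide, from 0.006 to 1 for 8mers and from 0.001 to 0.824 for 6mers. Over all miRNAs, the medians were 0.437 for 8mers and 0.184 for 6mers. In the adult library the order did not hold, since the family 8mers had a median of 0.385, below 0.5 for its 7mer-m8 sites and below 0.557 for the 8mers of all miRNAs. A score of at least 0.9 was reached by 98 family 8mers (45.6%) and by 124 family 6mers (22.3%). In the CDS, the median was 0.869 at e12.5 for the family and 0.981 for all miRNA sites.

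**Figure D2:**
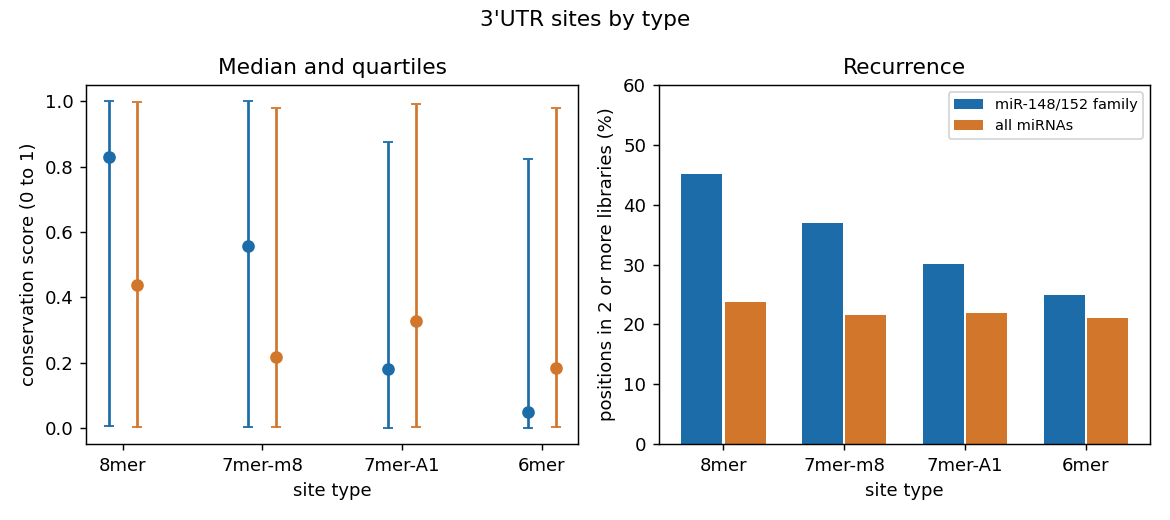
Left, conservation score (0 to 1) of 3′UTR positions by site type, as medians with bars from the lower to the upper quartile; right, percent of the positions that were listed in 2 or more of the 5 libraries. Blue stands for the family and orange for all miRNAs; the family's medians fall from 0.831 for 8mers to 0.051 for 6mers, and its recurrence from 45.1% to 25%.

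Of 1387 family positions in 3′UTRs, 937 were in 1 library, 268 in 2, 113 in 3, 49 in 4 and 20 in all 5. The share in all 5 was 1.44%, beside 0.585% for the 3′UTR positions of all miRNAs. Among the 8mers, 97 of 215 (45.1%) were in 2 or more libraries, beside 23.7% of all 8mers, and among the 6mers 139 of 557 (25%), beside 21%. In the CDS, 34 of 2131 positions (1.6%) were in all 5 libraries, beside 0.873%. A cluster lists 1 site per miRNA, and 27 of the 1387 3′UTR positions lay within 50 bases of another family position on the strand, so for these a missing entry may mean that the neighbour was listed.

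Within the 3′UTR, family sites lay much as other sites did. On the GENCODE annotation, 1206 of the 1387 positions could be placed, with a median distance of 630 bases from the stop codon in 3′UTRs of a median length of 2210 bases. The median position was 0.367 of the 3′UTR length from the stop codon, beside 0.380 for all miRNA sites. The 30 bases on either side of family 8mers held a median of 53.3% A and T, the same as around all 8mers, and those around family 6mers 48.3%, beside 50%.

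More 3′UTR clusters held a family site in the adult library than at e12.5 by share, but the difference did not pass the test. The share was 1.67%, 1.54%, 1.86%, 1.86% and 1.96% in order of age. It rested on 660 of 39452 3′UTR clusters at e12.5 (Wilson interval 1.55 to 1.8%) and on 312 of 15914 in the adult (1.76 to 2.19%). The intervals of e12.5 and adult liver overlapped. The log2 odds ratio of adult over e12.5 was 0.23 (95% interval 0.04 to 0.43), with an adjusted p of 0.0518 in a two-sided Fisher's exact test over 307 seed families. Of these families, 42% passed the threshold of 0.05, 20.8% with a larger and 21.2% with a smaller share in the adult. With 7mer and 8mer sites only, the log2 odds ratio was 0.36 with an adjusted p of 0.0122 in the same Fisher's exact test, where 21.7% of 189 families passed with a larger share. Counted by genes in place of clusters, the direction turned, to -0.46 with an adjusted p of 1.36e-05 by Fisher's exact test, but so counted 84.3% of 305 families passed with a smaller share in the adult, and the median family stood at -0.80. A gene had 4.69 3′UTR clusters at e12.5 and 2.77 in adult liver on average.

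Between e12.5 and e18.5, the log2 odds ratio for 3′UTR clusters was 0.15 (-0.04 to 0.35), with an adjusted p of 0.255 by Fisher's exact test. Of 351 families, 34.8% passed, 7.41% with a larger and 27.4% with a smaller share at e18.5. Between P7 and the adult it was 0.07 (-0.13 to 0.28), with an adjusted p of 0.653 by Fisher's exact test. Of 327 families, 15.9% passed, 3.36% with a smaller and the others with a larger share in the adult. Neither difference of the miR-148/miR-152 family passed the test by clusters. Counted by genes, both turned to a smaller share and passed, with log2 odds ratios of -0.66 and -0.33 and adjusted p of 7.47e-10 and 0.00844 by Fisher's exact test. So counted, 94.9% of 351 and 32.9% of 325 families passed with a smaller share, and the median family stood at -0.94 and -0.27. The number of 3′UTR clusters per gene was 2.7 at e18.5 and 3.65 at P7.

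In the CDS, the share of clusters with a family site was larger in the adult library than at e12.5 and at P7. In order of age it was 1.63%, 1.39%, 1.59%, 1.55% and 1.92%, from 951 of 58352 clusters at e12.5, 814 of 52455 at P7 and 747 of 39007 in the adult. The log2 odds ratio of adult over e12.5 was 0.24 (0.10 to 0.38), with an adjusted p of 0.00256 by Fisher's exact test. Of 378 families, 50.8% passed, 29.1% with a larger and 21.7% with a smaller share in the adult, and the miR-148/miR-152 family ranked 109 by its odds ratio. That of adult over P7 was 0.31 (0.16 to 0.45), with an adjusted p of 0.00016 by Fisher's exact test. Of 401 families, 44.9% passed, 41.1% with a larger and 3.74% with a smaller share in the adult, and the median family had a log2 odds ratio of 0.24. Between e12.5 and e18.5 the log2 odds ratio was -0.03, with an adjusted p of 0.844 by Fisher's exact test, where 39.2% of 421 families passed, 7.13% with a larger and 32.1% with a smaller share at e18.5. Counted by genes this difference passed, with a log2 odds ratio of -0.80 and an adjusted p of 2.61e-19 by Fisher's exact test, as did 96.9% of 419 families with a smaller share. Both adult differences lost the threshold when genes were counted, with log2 odds ratios of -0.09 and 0.14 and adjusted p of 0.294 and 0.195 by Fisher's exact test, where 57.1% of 378 families passed with a smaller and 16.7% of 401 with a larger share. The first lost it also with the first list of e12.5 (0.19, adjusted p 0.126).

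**Figure D3:**
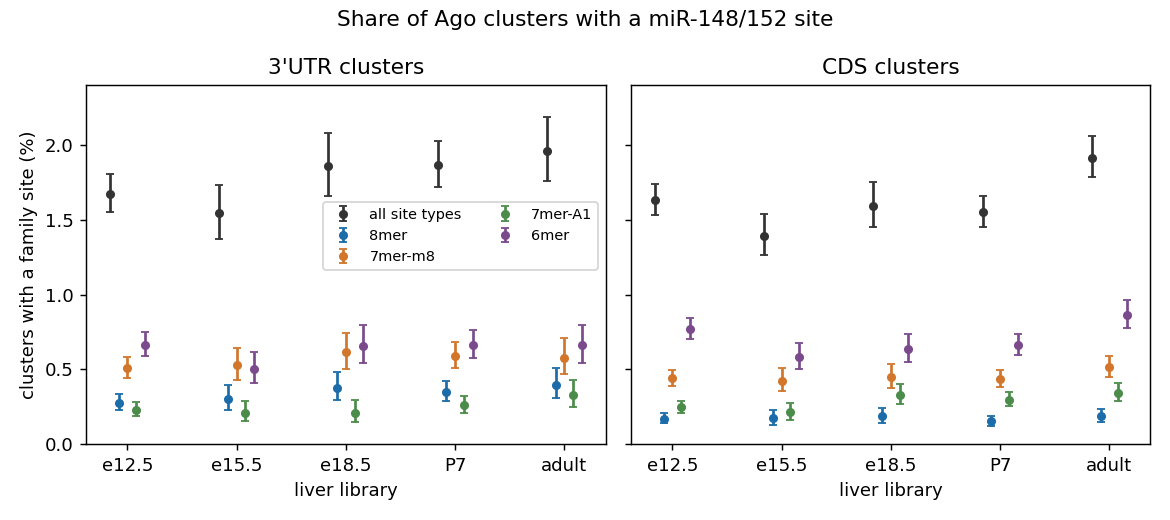
Percent of Ago clusters with a family site in 3′UTRs (left) and CDSs (right) of the 5 liver libraries, for all site types and for each type. Bars are 95% Wilson intervals; the black points run from 1.54% to 1.96% in 3′UTRs and from 1.39% to 1.92% in CDSs.

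Many sites of the family overlapped with those of the miR-130/miR-301 family and of miR-128, whose seeds share letters with it. The heptamer TGCACTG of a 7mer-m8 or 8mer family site contains TGCACT, the hexamer of miR-130/miR-301. This hexamer was in 310 of 663 3′UTR family sites at e12.5 (46.8%) and in 155 of 312 in adult liver (49.7%). A listed site of miR-130/miR-301 overlapped 308, 148, 156, 273 and 151 family sites in order of age, between 46.5% and 52.7% of them. Sites of miR-128 overlapped 33 of 300 at e18.5 (11%) and 36 of 312 in the adult (11.5%). Whether the Ago reads at these sites belong to the miR-148/miR-152 family or to the overlapping miRNA cannot be told apart in these tables.

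The miR-130/miR-301 miRNAs had most reads before birth. They held 2449, 2053, 3383, 848 and 436 rpm, from 5 listed miRNAs before birth and 4 after it. This was 6.51 times the level of the miR-148/miR-152 family at e12.5, 0.844 times at P7 and 0.512 times in the adult. MiR-128 had 69.6, 54.3, 163, 39.8 and 24.6 rpm. Nearly every cluster with a family 3′UTR site also held sites of other seed families, a median of 6 at e12.5 and 5 in the adult. Only 1 of 757 such clusters of both lists at e12.5 and 2 of 312 in the adult held none.

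Site levels are the highest read number listed for a site, in cluster rpm. This number differed among the sites of a cluster in only 6.98% to 11.3% of clusters. A site's share of its gene's reads, given below, can thus be that of a whole cluster with sites of other miRNAs. Across the 95 family 3′UTR positions listed in both the e12.5 and the adult library, the median log2 ratio of adult over e12.5 was -0.29, beside 0.17 over the 12504 positions of all miRNAs. At least 2-fold higher in adult liver were 26 family positions (27.4%), where 32.7% of all positions were. At least 2-fold lower were 36 (37.9%), where 29.3% of all were. When reads were scaled to the clusters of mRNAs only, which moved the median of all positions to 0.96, 42 family positions were higher (44.2%, beside 49.4% of all) and 19 lower (20%, beside 17.7%). Scaled to the total reads of the libraries, with a median of 0.48 over all positions, 32 were higher (33.7%, beside 39.5%) and 28 lower (29.5%, beside 24.5%). The family's median was 0.46 below that of all positions, a difference that no scaling of whole libraries can change.

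Between P7 and the adult, 15 of 119 family 3′UTR positions were at least 2-fold higher in the adult (12.6%, beside 17.4% of all) and 39 lower (32.8%, beside 34%). Between e12.5 and e18.5, 59 of 148 were higher at e18.5 (39.9%, beside 41.2%) and 35 lower (23.6%, beside 25.8%). In the CDS, 80 of 208 positions were at least 2-fold higher in the adult than at e12.5 (38.5%, beside 40.8%) and 54 lower (26%, beside 23.6%). From e12.5 to e18.5, 74 of 188 CDS positions were higher (39.4%, beside 43.1%) and 51 lower (27.1%, beside 25.1%). From P7 to the adult, 75 of 266 were higher (28.2%, beside 24.9%) and 56 lower (21.1%, beside 26.3%). These shares were near those of all sites in most comparisons. In the CDS from P7 to the adult, more family positions were higher than lower, while more of all positions were lower than higher. Scaled to mRNA clusters, the counts of higher and lower positions became 32 and 21 for the 3′UTR from P7 to the adult (26.9% and 17.6%, beside 30.1% and 21.5% of all) and 51 and 44 from e12.5 to e18.5 (34.5% and 29.7%, beside 35.6% and 31.6%). For the CDS they became 115 and 30 from e12.5 to the adult (55.3% and 14.4%, beside 56.2% and 13.9%). From e12.5 to e18.5 they became 64 and 61 (34% and 32.4%, beside 37.4% and 30.8%). From P7 to the adult they became 117 and 29 (44% and 10.9%, beside 39.1% and 15.1%). The directions of small changes thus hold only relative to the scaling. From e12.5 to the adult, scaling to total reads adds 0.30 to the log2 ratio of any site or whole gene. Scaling to mRNA clusters adds 0.79.

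Among the 20 3′UTR positions found in all libraries, the site of Abca1, the transporter that passes cholesterol out of cells to apolipoproteins, had the highest lowest level. It had 239, 93, 66, 102 and 257 reads. Scaled to cluster reads this was 5.33, 5.63, 5.07, 6.18 and 10.3 cluster rpm, so that on this scale 4 libraries lay close together and adult liver was highest. Clusters of mRNAs held 23.3%, 29.7%, 30%, 20.5% and 13.5% of the cluster reads, so this closeness depends on the scaling. The site held 10.6% of the Abca1 reads at e12.5 and 18.9% in adult liver. Its conservation score was 1. The second Abca1 position, a 7mer-A1, was listed at e12.5 only, with 21 reads.

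The site of Herpud1, a protein of the endoplasmic reticulum induced by the unfolded protein response, had 18.9, 49.9, 12.9, 9.39 and 4.22 cluster rpm from e12.5 to adult liver. It was highest at e15.5 and lowest in adult liver. Its share of the Herpud1 reads went from 30.8% at e12.5 to 4.45% in adult liver, while the reads of the whole gene were 0.63 higher on the log2 scale. The 8mer of Hspa5, the main chaperone of the endoplasmic reticulum, had 448, 277, 212, 17 and 71 reads. Its 3 embryonic values, 9.98 to 16.8 cluster rpm, lay above the P7 and adult values of 1.03 and 2.85.

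The 8mer of C1galt1, the enzyme that builds the core of O-linked glycans, had 4.95, 3.21, 8.3, 6.42 and 3.05 cluster rpm. No order by age was visible, and it held between 30.6% and 80.6% of the reads of C1galt1 in each library. The site of Lrp6, a co-receptor for Wnt ligands, had 4.64 cluster rpm at e12.5, 8.9 at e15.5 and 0.924 in adult liver. Its share of the gene's reads fell from 19% at e12.5 to 3.79% in adult liver, while the whole gene had nearly the same cluster rpm in both. The sites of Pag1, a membrane adaptor, and Frmd4a, a scaffold protein, had lowest values of 1.25 and 1.03 cluster rpm, and that of Frmd4a was also listed under CDS.

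Eif2ak1, the haem-regulated kinase that restrains translation in erythroid cells, Fam104a and Eps15, an adaptor of endocytosis, were also among the 12 genes with the highest lowest level. Eif2ak1 had 5.13 cluster rpm at e12.5 and 0.964 in adult liver. Fam104a had 5.37 at e12.5, 0.615 at e18.5 and 2.73 in adult liver, and its 8mer held 85% of the gene's reads in adult liver. Of the 12 genes, 2, Abca1 among them, had a higher cluster rpm in adult liver than at e12.5 and 10 a lower one. With reads scaled to mRNA clusters, 8 were lower, since C1galt1 and Eps15 turned, and with total reads 9, since Eps15 turned. In cluster rpm, the median log2 ratio was 0.17 over the 12504 3′UTR positions of all miRNAs in both libraries. It was -0.29 over the family's 95. The 12 genes were chosen by their lowest level, and their direction was not tested.

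**Figure D4:**
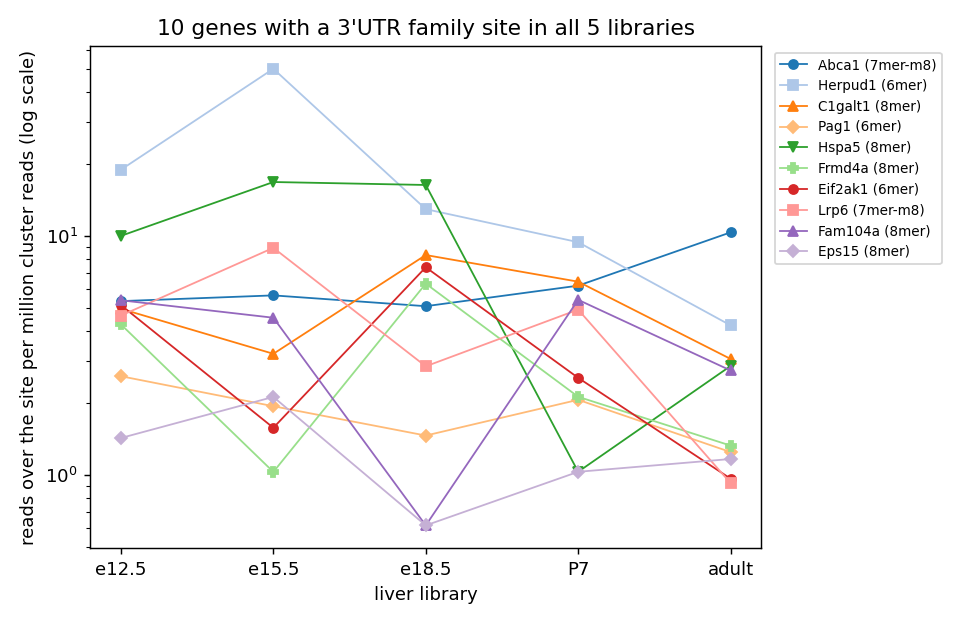
Level of the family site in cluster rpm (log scale) in the 5 liver libraries for 10 of the 12 genes whose 3′UTR site was in all of them with the highest lowest level; 1 line per gene, with its site type. Abca1 stays between 5.07 and 10.3 and is highest in adult liver, and Herpud1 falls from 49.9 at e15.5 to 4.22.

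Among 3′UTR sites listed in both libraries, the largest rise from e12.5 to adult liver was at the 8mer of Arl6ip1, a protein that shapes the endoplasmic reticulum. It had 6, 600, 236, 256 and 450 reads. The e12.5 library alone was low, with 0.134 cluster rpm beside 36.3 at e15.5 and 18.1 in the adult. The whole gene fell by 1.17 on the log2 scale between e12.5 and adult liver, while the site was 7.08 higher. At e12.5, 2 other Arl6ip1 3′UTR positions were listed, with 55 and 232 reads.

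Among the next rises in 3′UTRs were the 8mers of Cyp2c40, a cytochrome P450, with 8 reads in the e12.5 library and 315 in the adult one, and of Atxn1, a transcription regulator, with 7 and 55, and the 7mer-A1 of Adck3, a protein of coenzyme Q synthesis, with 13 and 159. For Cyp2c40 and Adck3 the whole gene was higher as well, by 6.82 and 6.98 on the log2 scale, more than the site. For Atxn1 the whole gene fell by 2.11 on the log2 scale. The Cyp2c40 and Adck3 sites were also listed under CDS. Cyp2c40 has close relatives in the genome, so its reads are uncertain. These positions were chosen for their change, which is given as a description.

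Among the largest falls in 3′UTRs were those at sites of Col4a1, Ermp1, a metallopeptidase of the endoplasmic reticulum, Myh9, a non-muscle myosin, and Raly. The 8mer of Col4a1, a collagen of basement membranes, had 143 reads at e12.5 and 8 in the adult, with 104 and 38 in the e18.5 and P7 libraries between. Its share of the gene's reads fell from 15.7% to 0.945%, while the whole gene was 0.75 higher on the log2 scale. The 7mer-m8 of Raly, an RNA-binding protein, fell by 2.69 on the log2 scale, but the whole gene fell by 5.05, and the site's share of the gene rose from 6.78% to 34.6%. The sites of Ermp1 and Myh9 had log2 ratios of -2.75 and -2.71, each below that of its gene. The Ermp1 and Raly sites were also listed under introns.

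The family 3′UTR sites with the most reads lay in different genes in the embryonic and the adult library. At e12.5 these were Cdkn2d, an inhibitor of cyclin-dependent kinases, with 1992 reads, and Hist1h2ag, a histone gene, with 1019. At e15.5 they were Cdkn1b, which encodes the inhibitor p27, with 970, and Herpud1 with 824. At e18.5 they were Cdkn1b with 754 and Map3k9, a kinase of stress signalling, with 322. At P7 they were Crat, carnitine acetyltransferase, with 777, and Fnbp1, a membrane-bending protein, with 392. In adult liver they were Cyp8b1, the sterol 12-alpha-hydroxylase of bile acid synthesis, with 1029, and Cp, the copper-carrying plasma protein ceruloplasmin, with 827. The files list the Crat site under CDS as well, and the Fnbp1 and Cp sites under introns as well. Histone genes have near-identical copies, so the reads of Hist1h2ag may belong to several of them.

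The Cdkn2d site had 44.4, 34, 19.3 and 6.55 cluster rpm from e12.5 to P7, and it was not listed in adult liver, where Cdkn2d had no listed mRNA cluster. The Cdkn1b 3′UTR site had 22.7, 58.7, 58 and 6.3 cluster rpm and was not listed in adult liver either, where the whole gene had 56 reads, against 3859 at e15.5. Before birth the site held between 22.8% and 34.5% of the Cdkn1b reads. The Cyp8b1 site was listed at P7 with 135 reads and in adult liver with 1029, and the whole gene rose from 0.401 cluster rpm at e12.5 to 277. Of the 8 erythroid markers, 6 were lower at e18.5 than at e12.5, and all 8 were lower at P7 than at e18.5 and in adult liver than at P7. Their part in these differences was not tested.

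In the CDS, the 6 positions found in all libraries with the highest lowest level were in Apoa2, Cpox, Fgb, Gm10094, Clu and Fth1. The site of Apoa2, an apolipoprotein of HDL, had 22.4, 64.2, 13.8, 30.3 and 210 cluster rpm, and held 62% of the gene's reads in adult liver. The site of Fgb, the beta chain of fibrinogen, had 310, 238, 2213, 675 and 8225 reads, and its share of the gene rose from 15.3% to 64.5%. The site of Clu, the chaperone clusterin, had 5.48 cluster rpm at e12.5 and 112 in adult liver, while the whole gene rose by 5.18 on the log2 scale, more than the site. Cpox, an enzyme of haem synthesis, had 28.9 and 26.8 cluster rpm at e12.5 and in adult liver, while the gene as a whole fell by 2.64.

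The site of Fth1, the ferritin heavy chain, went down from library to library, with 6774, 1858, 903, 235 and 136 reads. The same 30 bases stood at a listed family site in Gm6977 on chromosome X, with 3502 reads at e12.5 and 68 in the adult, and the reads of the pair cannot be assigned to either copy.
Fth1, CDS, 7mer-m8, chr19:9984588-9984617, plus strand: ggctgaatgcaatggagtgTGCACTGcact
Gm6977, noncoding exon, 7mer-m8, chrX:90744743-90744772, minus strand: ggctgaatgcaatggagtgTGCACTGcact
Tdo2, the first enzyme of tryptophan breakdown, had a 7mer-A1 in its CDS listed in adult liver only, with 16816 reads, and was chosen after its values were seen.

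Of 18 genes of lipid and cholesterol handling, 11 had a family site in the mRNA (61.1%) and 8 of them in the 3′UTR (44.4%). Of all 14348 genes with an mRNA site of any miRNA, 19.2% had a family site, and of all 11065 genes with a 3′UTR site, 10.9% had one of the family there. The lists hold known targets of the family, so these shares are no independent support. Abca1 had a 3′UTR site in all 5 libraries. Sik1, a kinase of the glucagon response, had an 8mer with a conservation score of 1 in the 4 libraries up to P7, with 26 to 37 reads.

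Abcg1, Prkaa1 and Insig1 each had a 3′UTR site in 1 library, with 50, 37 and 14 reads. The CDS site of Srebf1, the transcription factor of fatty acid synthesis, had 314 reads in the adult, 58 at P7, 8 at e18.5 and 5 at e12.5. Its share of the Srebf1 reads rose from 0.602% to 19.7%, while the whole gene was 1.79 higher on the log2 scale. The first share rests on 5 reads, the lowest number listed, and the site was not listed at e15.5. Srebf2, the factor of cholesterol synthesis, had a 6mer in the CDS with 59 reads at e15.5 and 248 in adult liver. No family site was listed for Cpt1a, Ppargc1a, Prkaa2, Scarb1, Nr1i2, Nr1h3 or Lpl.

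Of 9 listed genes of DNA methylation, 3 had a family site (33.3%, beside 19.2% of all genes) and 1 had it in the 3′UTR (11.1%, beside 10.9%). The 3′UTR 8mer of Dnmt1, the maintenance methyltransferase, had a conservation score of 1 and was listed at e12.5 only, with 20 reads. Its CDS 6mer had 67 reads at e12.5 and 28 in adult liver. Dnmt3b, a de novo methyltransferase, had an 8mer listed under its CDS at P7, with 6 reads, and the lowest free energies of the sites named here, -27.8, -27.5 and -23.3 for the 3 members in the order above. Uhrf1, the partner of Dnmt1, had CDS 6mers with 66 and 62 reads at e12.5, the first also with 213 at e18.5. No site was listed for Dnmt3a, Tet1, Tet2, Tet3 or Mbd2.

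Of 17 genes of growth and survival, 10 had a family site (58.8%, beside 19.2% of all genes) and 9 had it in the 3′UTR (52.9%, beside 10.9%). Cdkn1b had the most reads, and a CDS 6mer of it had 1798, 1177, 899 and 246 reads up to P7. Another CDS 6mer of Cdkn1b had 218, 49, 9 and 13 reads at e12.5, e15.5, P7 and in adult liver. Met, the receptor of hepatocyte growth factor, had a 7mer-m8 with 168 reads at e12.5, 53 at P7 and 34 in adult liver. Erbb3, a receptor of the EGF family, had one with 22 and 27 reads at P7 and in adult liver only. Ccnf, a cyclin, had an 8mer with 14 reads at P7, 125 at e15.5 and 97 at e12.5, and Bcl2l11, the cell-death factor Bim, had 3 positions, each in 1 or 2 libraries. Errfi1, a feedback inhibitor of the EGF receptor, had an 8mer with 105 reads at e18.5 and a 6mer beside it with 268 in adult liver, where the whole gene had 12980. The 3′UTR sites of Cdc25b, Nrp1 and Adam17 had at most 75, 11 and 25 reads, and Usp4 had CDS sites only.

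Of 13 genes of TGF-beta, BMP and Wnt signalling, 4 had a family site, each in the 3′UTR (30.8%, beside 10.9% of all genes) and with few reads. Acvr1, a BMP receptor, had 12 at e12.5 and 32 at e15.5 at a site also listed under introns, Smad5 had 19 in adult liver, Inhbb, an activin subunit, had 6 at e18.5, and Ltbp1, a binding protein of latent TGF-beta, had 27 at P7. Of 10 listed immune and lineage factors, 5 had a 3′UTR site (50%, beside 10.9%). Gadd45a, a stress-response gene, had a conserved 8mer with 311 reads at e12.5 and 47 at P7, Nfya, a subunit of a CCAAT-binding factor, had 4 positions over 4 libraries, Mafk, a small Maf protein, had a 6mer with 182 reads at e15.5, Klf6, a zinc-finger factor, had a 7mer-A1 with 20, and S1pr1, a receptor of sphingosine phosphate, had an 8mer with 12 reads at e12.5 and 61 at P7.

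**Figure D5:**
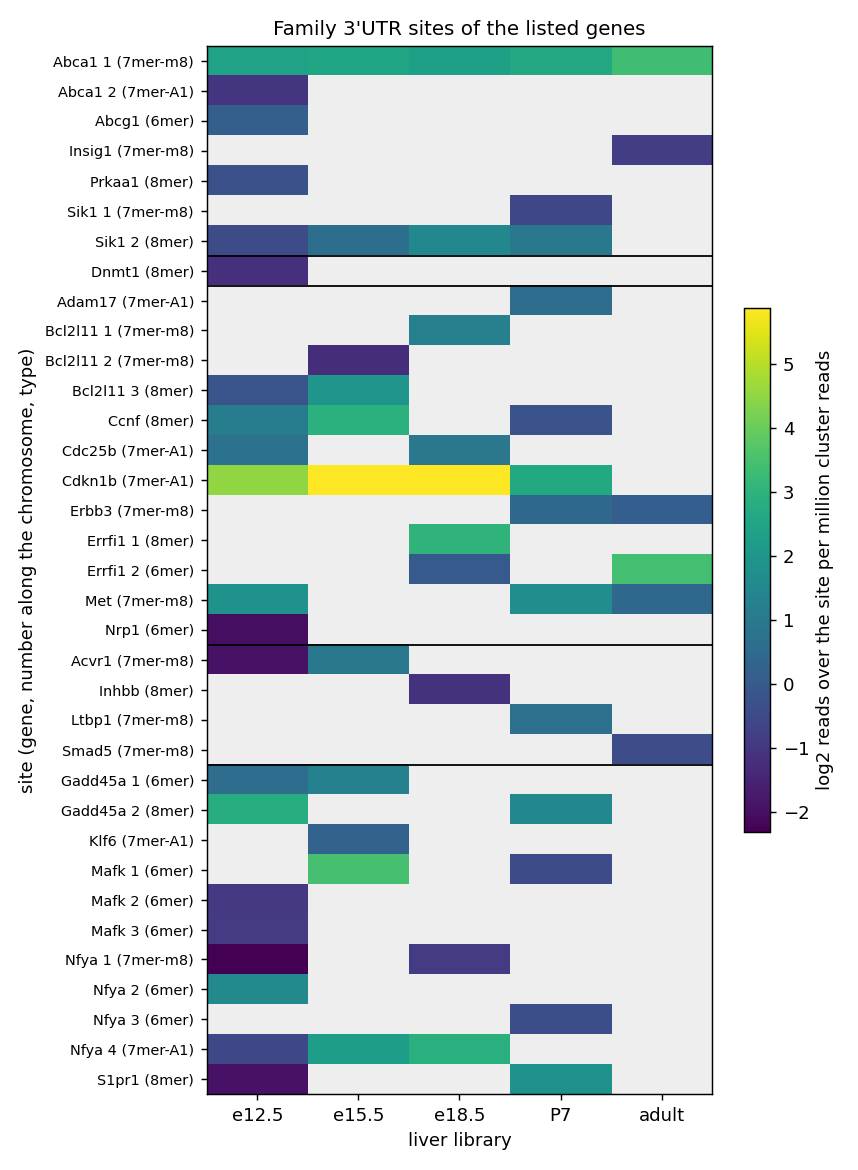
Log2 cluster rpm of family 3′UTR sites in the 5 liver libraries for genes of the 5 lists, separated by black lines in the order lipid and cholesterol, DNA methylation, growth and survival, TGF-beta with BMP and Wnt, immune and lineage factors. Grey marks a site that was not listed; Abca1 has a colour in every column, and Cdkn1b is brightest at e15.5 and e18.5 and grey in adult liver.

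Of the 1211 genes with a family site in the 3′UTR, 1072 had 1 position and 139 had more. Flna, an actin crosslinker, had 6 and Lpin2, a phosphatidate phosphatase, had 5, each position in 1 to 3 libraries. Ago2 and Tnrc6b, both parts of the silencing complex, had 3 each. The 8mer of Ago2 had 186, 71 and 5 reads before birth and was not listed later. The 7mer-m8 of Tnrc6b was in all 5 libraries, with 3.39, 3.75, 1.84, 7.03 and 0.603 cluster rpm. These genes were chosen for their number of positions.

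Outside mRNAs, the family positions with the most reads lay in or beside miRNA precursors. The listed reads there may be those of another miRNA that lies at or near the seed match. A 6mer in the Mir142 precursor, of a miRNA known from blood cells, had 105674, 44581, 23103, 55828 and 17420 reads. A position 3 bases from the same precursor had 598749 reads in the e18.5 library and was not listed in the others. Positions inside precursors held 47.3%, 51.5%, 7.74%, 60.8% and 42.7% of all reads over family sites, from 5 to 7 positions a library, and the e18.5 share was low beside that single position. These are positions inside a precursor of the RefSeq table or listed under the name of a miRNA gene, and with the table alone 4 to 5 positions held 41.2%, 45.1%, 4.65%, 38.1% and 10%. The 3′UTR sites held 12.3% of the reads at e12.5, 2.14% at e18.5 and 7.24% in the adult.

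The noncoding RNA H19, an imprinted transcript that is abundant before birth, had a conserved 7mer-m8 in an exon, 1250 bases from the Mir675 precursor that it hosts. It had 25250, 16391, 17128, 27903 and 26 reads. These were 563, 992, 1317 and 1691 cluster rpm up to P7 and 1.04 in the adult, so that the adult library stood apart from the other 4. The site was chosen after its values were seen.
H19, noncoding exon, 7mer-m8, chr7:142575804-142575833, minus strand: gaatttgcactaagtcgatTGCACTGgttt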

How the data were processed

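Ago HITS-CLIP tables of mouse liver, 1 per stage, were analysed. The authors prepared reads with the FASTX-Toolkit, aligned them by Bowtie against mm10 and miRBase v19, and searched clusters of overlapping reads for seed matches. The versions are not given in the sources used here. The submitters' processing notes also name mm9, but the listed positions hold the seed match on mm10. The number in an interaction name was read as the miRNA's reads. Tables list 1 site per miRNA and cluster. The deposited read column is a signal, the highest read number, not scaled and of at least 5. It differed among the sites of a cluster in 6.98% to 11.3% of clusters. The deposited conservation, a fraction from 0 to 1, and the deposited free energy, a score, are of unstated method.

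The 2 lists of each embryonic table were joined for clusters and added for reads. MiRNA reads ran from 7781484 to 25546696 per library. Shares have Wilson 95% intervals, and seed families with at least 50 clusters in both libraries were compared with Fisher's exact test (two-sided, Benjamini-Hochberg adjusted), which was tested on simulated data. Intervals cover counting error only, since reads are not independent molecules. Gene totals are the summed highest reads of a gene's listed mRNA clusters. The named genes were the 12 with the highest lowest level among 3′UTR sites in all libraries, the 5 largest rises and falls among 3′UTR sites listed in both libraries, the 2 sites with most reads per library, the 6 such CDS sites, and all listed genes with a site. The members and lists were chosen with earlier results of these data known. In the lists, 9 of 10 DNA methylation genes, 10 of 12 immune and lineage factors and all genes of the others were in the tables. Python 3.11.15, pandas 2.3.3, scipy 1.17.1 and pysam 0.24.0 were used. Replicates (2 biological ones for Ago2) are named in the methods, and a second e18.5 sample in the supplementary text, but neither in the labels, so none was used here as a replicate. Some genes that the rule names are not reported here.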

Additional observations from a re-analysis of the deposited data

How the results depend on the processing

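No paired analysis was possible because each stage had 1 library. For the 3′UTR share, the log2 odds ratio of adult over e12.5 was 0.36 with 7mer and 8mer sites and 0.31 with at least 10 reads, both past the threshold, and counted by genes it was -0.46, with -0.66 for e18.5 over e12.5 and -0.33 for adult over P7. For the CDS share, counting genes gave -0.0904 for adult over e12.5, -0.80 for e18.5 over e12.5 and 0.14 for adult over P7. The first list of e12.5 gave 0.19 for adult over e12.5, past the threshold no longer. The e18.5 over e12.5 value, near 0, was 0.16 with 7mer and 8mer sites, 0.0364 with at least 10 reads and 0.0546 with the second lists. The cause of the turn with genes was not tested.

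The log2 ratio of adult over e12.5 in miRNA level was 1.26 for miR-148a-3p, 0.10 for miR-152-3p and 0.36 for the family with the first list, and 1.94, 1.71 and 1.51 with the second. With all numbers of a miRNA summed in the total it was 1.34, 0.76 and 0.75, and -0.67 for miR-148b-3p. Without 6mers, 3′UTR sites were 401 and 207 in the e12.5 and adult libraries, 194 at e18.5 and 356 at P7. At e18.5, 196 had at least 10 reads, and in adult liver 199 were listed under the 3′UTR alone. With at least 10 reads, 12 positions were in all libraries. The family's median log2 ratio of site reads less that of all sites, for sites with at least 10 reads, was -0.35 in the CDS and -0.0573 in the 3′UTR for e18.5 over e12.5, and 0.32 in the CDS for adult over P7, in place of -0.17, 0.012 and 0.17. Of the other 41 values, 12 could not change, since a scaling moves all sites alike. The remaining 29 kept their direction and, where tested, their side of the threshold, or moved by up to 1.5 times. Scaling to mRNA clusters was chosen after seeing the data.

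The tables list no value under 5 reads, so a site that is not listed was not detectable at this depth or gave way to a neighbour in its cluster, and is not shown to be absent. With 1 library per stage, no spread between animals is known.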
